A study of Mus musculus with 2 samples.

Results

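The genes described here are 39 markers of the cell division cycle, 14 of S phase (from Mcm2 to Rrm2) and 25 of G2 and mitosis (G2/M), out of 32285 genes in the deposited tables. They were chosen by name, and all 39 were found. Single cells of RM-1 tumors were sequenced by a droplet method. RM-1 is a mouse prostate cancer cell line, here implanted orthotopically in mice and labelled wild-type. 1 library came from vehicle-treated tumor tissue (control) and 1 from tissue treated with enzalutamide (ENZ), an androgen receptor antagonist. Immune cells were enriched before loading, so the shares of cell classes among all cells were set in part by that step. With 1 library per condition no test between conditions was possible. All intervals are 95% intervals that cover counting error only, and the treatment, the mouse and the library cannot be told apart.

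A dividing cell copies its DNA in S phase, for which it needs the MCM helicase, the sliding clamp PCNA and enzymes that make deoxynucleotides. In G2 and mitosis it needs cyclin B with the kinase CDK1, the aurora and polo-like kinases, spindle and centromere proteins, and the anaphase-promoting complex, which marks cyclins for destruction. E2F factors are known to drive S genes, and the DREAM and MuvB complexes to control G2/M genes through the cell cycle genes homology region (CHR), often near CCAAT boxes. In a tumor the same genes mark cancer cells and infiltrating immune cells that divide.

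The S and G2/M genes differed in the letters of their promoters. RefSeq promoters (GRCm38.p6, 250 bases before to 50 after the start) were matched for 33 of the 39 genes, 12 S and 21 G2/M. The CHR letters TTTGAA, read on both strands, were in 14 G2/M promoters (66.7%), in 2 S promoters (16.7%) and in 18.1% of 27025 promoters of all genes. An E2F sequence (TTTGGCGC, TTTCCCGC or TTTCGCGC) was in 6 S promoters (50%), in 1 G2/M promoter (Cdk1, 4.76%) and in 1.91% of all promoters. The letters CCAAT were in 75% of S, 85.7% of G2/M and 37.9% of all promoters. CHR and CCAAT occurred together in 66.7% of G2/M, 16.7% of S and 7.12% of all promoters. A match describes letters and is not a binding site. The 250 bases before the RefSeq start of 4 members are shown because they hold the letters by which the lists differed, with each motif on either strand in capitals and motifs that overlap run together. Mcm6, a helicase subunit, stands for the S list (chr1:128359706-128359955, minus strand). Cdc20, an activator of the anaphase-promoting complex (chr4:118437344-118437593, minus strand), and Ube2c, its ubiquitin-conjugating enzyme (chr2:164769679-164769928, plus strand), stand for the G2/M list. Cdk1, the mitotic kinase (chr10:69352913-69353162, minus strand), held all 3 kinds of motif.
Mcm6: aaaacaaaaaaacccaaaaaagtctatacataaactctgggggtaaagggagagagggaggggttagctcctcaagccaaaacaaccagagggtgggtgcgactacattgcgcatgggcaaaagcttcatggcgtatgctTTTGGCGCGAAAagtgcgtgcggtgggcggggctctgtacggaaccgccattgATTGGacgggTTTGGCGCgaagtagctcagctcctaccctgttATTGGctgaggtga
Cdc20: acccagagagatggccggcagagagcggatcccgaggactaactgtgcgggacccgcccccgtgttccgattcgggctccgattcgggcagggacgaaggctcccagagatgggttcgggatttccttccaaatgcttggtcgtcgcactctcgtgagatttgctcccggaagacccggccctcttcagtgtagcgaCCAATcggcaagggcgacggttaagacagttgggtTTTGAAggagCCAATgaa
Ube2c: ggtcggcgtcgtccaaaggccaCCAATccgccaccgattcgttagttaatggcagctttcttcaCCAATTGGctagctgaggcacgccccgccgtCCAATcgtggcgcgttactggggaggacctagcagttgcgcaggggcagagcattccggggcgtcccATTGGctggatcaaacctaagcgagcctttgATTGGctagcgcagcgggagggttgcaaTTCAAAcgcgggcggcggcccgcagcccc
Cdk1: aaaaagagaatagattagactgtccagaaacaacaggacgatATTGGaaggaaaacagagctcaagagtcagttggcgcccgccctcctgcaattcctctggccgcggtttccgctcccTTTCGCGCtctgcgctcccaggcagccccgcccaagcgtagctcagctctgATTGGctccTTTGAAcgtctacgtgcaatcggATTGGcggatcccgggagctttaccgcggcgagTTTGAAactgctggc

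The members were counted as unique molecular identifiers (UMIs), each of which tags 1 captured RNA molecule. The control library held 170830346 UMIs and the ENZ library 162030149. Barcodes with at least 1000 UMIs and at most 20% mitochondrial UMIs were kept as cells, which left 12253 control cells (median 6376 UMIs) and 10271 ENZ cells (median 8127 UMIs). Of these barcodes, 39 occurred in both libraries, 0.318% of the control and 0.380% of the ENZ cells. Cells were then gated by marker genes. The cancer gate held 3679 control and 4268 ENZ cells. Its keratin Krt8 was at 462 and 521 CPM (CPM, the counts-per-million scaling of the gene's UMIs by all UMIs of the class, with the control first here and below), Krt19 at 153 and 183 CPM and Krt18 at 376 and 369 CPM, and of the other genes of the gate Pcdh9 was at 177 and 134 CPM and Meis2 at 176 and 160.3 CPM. The 9 genes of the panel summed to 1348 and 1370.1 CPM, and 6 leukocyte genes to 57.3 and 38.5 CPM in this gate. The part of these shifts in the members' ratios was not tested. Epcam was low at 3.14 and 3.05 CPM, Cldn4, Cldn7 and Krt7 each had at most 10 UMIs per library, and Pbsn, a marker of prostate luminal cells, had none. The CD8 T gate held 87 and 156 cells, the NK gate 264 and 128, the macrophage gate 1517 and 825, the monocyte gate 1303 and 1368 and the dendritic cell (DC) gate 196 and 106. The gate for regulatory T cells held 179 and 278 cells, but only 17.9% and 24.8% of them had a UMI of the defining gene Foxp3, against 97.2% and 92.1% with an Ikzf2 UMI. Ikzf2 was also at 607 and 559.6 CPM in the CD8 T gate, so the cells of this gate are called Ikzf2-high T cells. Neutrophils (1097 and 437 cells), which no longer divide once mature, served as a class that should lack the members.

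Cancer cells held the highest summed level of G2/M genes of all classes, and both lists were lower in ENZ than in control cancer cells. The S genes summed to 855 and 781 CPM, a ratio of ENZ to control of 0.913 (0.905 to 0.922). The intervals of levels and ratios count each UMI as a separate draw, so they leave out the spread between cells. They are too narrow where a few cells hold many of the UMIs. The G2/M genes summed to 2472 and 2165 CPM, a ratio of 0.876 (0.871 to 0.881). For every 100 S UMIs, cancer cells held 289 G2/M UMIs (287 to 291) among control cells and 277 (275 to 279) among ENZ cells. CD8 T cells held the S genes at a level like that of cancer cells, 928 and 906 CPM, and the G2/M genes at a lower one, 1631 and 1377 CPM. Ikzf2-high T cells followed with 686 and 633 CPM of S genes and 1310.1 and 1137 CPM of G2/M genes. NK cells had S genes at 499.6 and 411 CPM, macrophages at 300.4 and 363 CPM, DCs at 276 and 293 CPM and monocytes at 215 and 196 CPM, against 171 and 154 CPM in neutrophils. The libraries also differed in the make-up of their RNA. Gm42418, a gene model that overlaps ribosomal RNA sequence, took 1.07% and 2.88% of the UMIs of cancer cells, and between 3.17% and 5.15% of those of the other classes in the control and between 6.98% and 8.99% in the ENZ library. Genes of ribosomal proteins took 23.8% and 22.04% in cancer cells. Their shares were 24.2% and 19.0% in CD8 T cells, 24.2% and 17.6% in Ikzf2-high T cells and 24.1% and 20.3% in NK cells. In macrophages they were 19.1% and 14.5%, in monocytes 18.6% and 14.6% and in DCs 18.9% and 16.6%. The ratios in cancer cells were also computed with ribosomal protein genes, Gm42418 and mitochondrial genes left out of the total. The log2 ratios were then -0.13 for the S and -0.19 for the G2/M genes, against -0.13 and -0.19 with all genes. In the other classes their part was not tested.

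**Figure D1:**
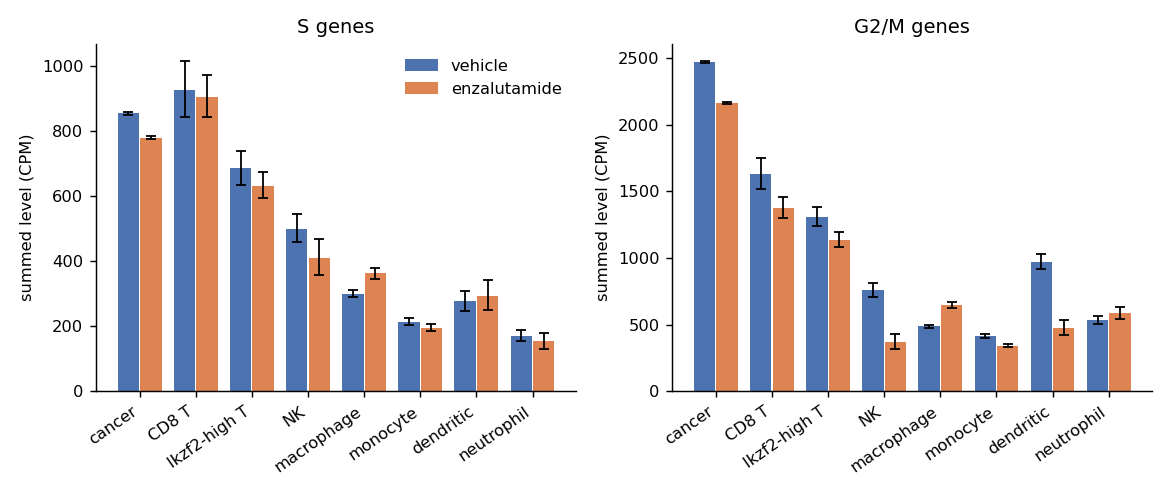
Summed level of the 14 S genes and of the 25 G2/M genes in CPM, by cell class and library; error bars are 95% Poisson intervals of the counts. Both lists are highest in cancer and T cells, and the libraries differ most for the G2/M genes of NK cells (761 and 371 CPM) and DCs (974 and 475 CPM).

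By a rule that sums the UMIs of all members, a smaller share of ENZ than of control cancer cells was in cycle. A cell was called in cycle when it had at least 2 member UMIs after each cell had been thinned at random to 1000 UMIs, which set all cells to the same depth. By this rule 45.0% (43.4 to 46.7) of control and 39.8% (38.3 to 41.2) of ENZ cancer cells were in cycle, a difference of -5.28 percentage points (-7.47 to -3.08). At least 2 G2/M UMIs were found in 33.9% and 28.2% of cancer cells (-5.76 points, -7.82 to -3.70), and at least 2 S UMIs in 17.2% and 15.4% (-1.79 points, -3.45 to -0.146). Among all cancer cells, those in cycle with UMIs of both lists made up 28.8% and 25.3%, those with G2/M genes only 12.6% and 10.1%, and those with S genes only 3.62% and 4.38%. The rule divided a continuous range, since 32.8% of cancer cells in each library had 1 or 2 member UMIs. Not every member showed the difference on its own. The shares of cancer cells with an Mki67 UMI, given below, were nearly the same in both libraries. The members' ratios also went with gene length (below), and the part of this in the share in cycle was not tested. Without thinning, 98.6% and 98.4% of cancer cells had at least 2 member UMIs. Before thinning, cancer cells in cycle also held more RNA, with a median of 28050 UMIs against 17585 in the other control cancer cells and 29529 against 19029 in the ENZ library.

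**Figure D2:**
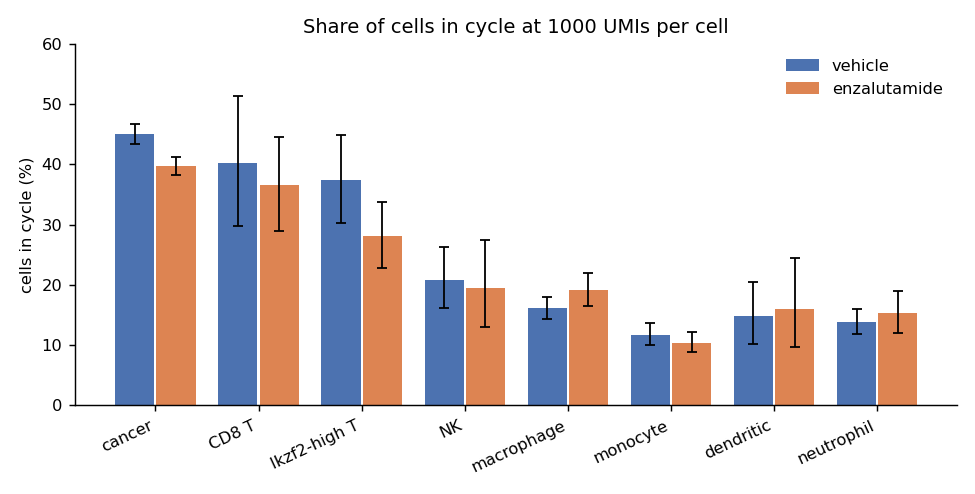
Percent of cells in cycle (at least 2 member UMIs after thinning to 1000 UMIs) by cell class and library; error bars are 95% Clopper-Pearson intervals. Cancer cells, CD8 T cells and Ikzf2-high T cells stand above the neutrophils (13.9% and 15.3%), and monocytes and DCs do not.

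Neutrophils gave the background of this share. At medians of 1946 and 2079 UMIs before thinning (21558 and 22492 in cancer cells), 13.9% (11.9 to 16.0) and 15.3% (12.1 to 19.1) of them met the rule. Cks2, a small subunit of cyclin-dependent kinases (CDKs), took 29.1% and 27.0% of their member UMIs, against 5.64% and 4.92% in cancer cells. A few cells of the neutrophil gate were rich in members. The 5 with the most member UMIs held 18.3% and 25.1% of them, and the highest single cell 144 of 1773 and 94 of 806. Of the members followed in every class, neutrophils held Pcna at 84.2 and 66.8 CPM, Rrm2 at 6.76 and 6.41 CPM, Tyms at 6.76 and 7.32 CPM, Mki67 at 23.4 and 35.7 CPM, Top2a at 38.1 and 49.4 CPM, Cdk1 at 16.3 and 18.3 CPM, Ccnb1 at 4.77 and 5.49 CPM, Birc5 at 16.7 and 21.97 CPM and Cdc20 at 7.55 and 8.24 CPM, and Mcm5 had 20 and 0 UMIs. Barcodes with at most 100 UMIs, which hold mostly RNA free in the suspension, carried the members at 2261 and 2308 CPM. Judged by Rhox5, a gene of RM-1 cells that was chosen after its values were seen, free RNA would give 25.3% and 28.4% of the neutrophils' member level. Judged by neutrophil markers, it would give 2.46% and 2.95% of that of cancer cells. Cancer cells exceeded the neutrophil share by 31.2 points (28.5 to 33.8) among control cells and 24.4 points (20.4 to 28.0) among ENZ cells.

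Gene by gene, differences in cancer cells were small, and more members were lower than higher in the ENZ library. Of the 39 members, 38 had a mean of at least 20 CPM over the libraries and were set beside the 6533 genes that did so. Cdc6, which loads the helicase, fell short at 14.3 and 13.2 CPM. None of the 38 was higher or lower by at least 1.5 times, against 0.352% of all genes higher and 0.674% lower by that much. The intervals of 24 members lay below equality and those of 4 above it, against 32.3% and 49.4% of all genes. The median log2 ratio of ENZ to control was -0.09 over 13 S genes and -0.11 over 25 G2/M genes, against 0.05 over all genes.

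**Figure D3:**
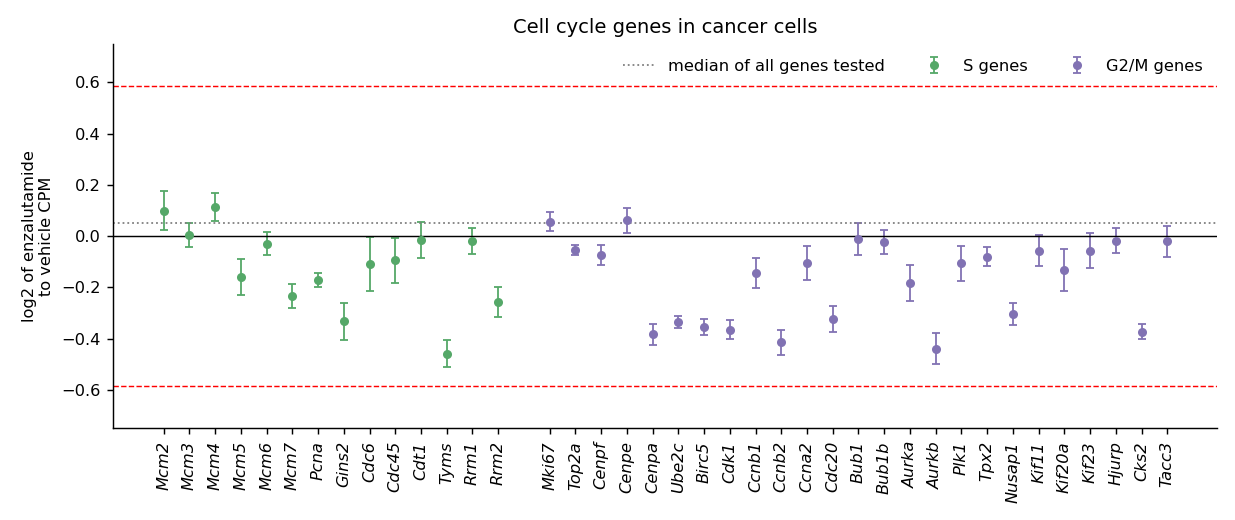
log2 ratio of ENZ to control CPM of each member in cancer cells, with 95% intervals for counting error; the dashed lines mark 1.5 times and the dotted line the median of all genes (0.05). S genes range from -0.46 (Tyms) to 0.11 (Mcm4) and G2/M genes from -0.44 (Aurkb) to 0.06 (Cenpe), and none reaches a dashed line.

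Among the S genes, Tyms, thymidylate synthase, was at 70.4 and 51.2 CPM (log2 -0.46, -0.51 to -0.41), the lowest ratio of the S list. Rrm2, the small subunit of ribonucleotide reductase, was at 49.7 and 41.5 CPM (log2 -0.26, -0.32 to -0.20), while the interval of Rrm1, its large subunit, held equality at 64.0 and 63.2 CPM (-0.02, -0.07 to 0.03). Gins2, a part of the GINS complex that joins the helicase, was at 34.2 and 27.2 CPM (-0.33, -0.40 to -0.26). The subunits of the helicase itself went both ways. Mcm4 was at 49.7 and 53.8 CPM (0.11, 0.06 to 0.17) and Mcm2 at 27.1 and 29.0 CPM (0.10, 0.02 to 0.17), the only S genes whose intervals lay above equality. Mcm5 was at 34.8 and 31.1 CPM (-0.16, -0.23 to -0.09) and Mcm7 at 75.3 and 64.0 CPM (-0.23, -0.28 to -0.19), both below it. The intervals of Mcm3 (0.00, -0.04 to 0.05) and Mcm6 (-0.03, -0.07 to 0.02) held it. Pcna was at 234 and 207 CPM (-0.17, -0.20 to -0.14). Cdt1, which licenses origins, and Cdc45, a helicase cofactor, had log2 ratios of -0.01 and -0.09.

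Among the G2/M genes, Aurkb, the kinase of the chromosomal passenger complex, had the lowest ratio at 49.3 and 36.4 CPM (log2 -0.44, -0.50 to -0.38), and Birc5 (survivin), of the same complex, was at 176 and 138 CPM (-0.35, -0.39 to -0.32). Ccnb2, a B-type cyclin, was at 70.5 and 52.9 CPM (-0.41, -0.47 to -0.36), Cdk1 at 141 and 109.6 CPM (-0.36, -0.40 to -0.33) and Cks2 at 188 and 145 CPM (-0.37, -0.40 to -0.34). Ccnb1, the other B-type cyclin of the list, was nearer to equality at 46.6 and 42.2 CPM (-0.14, -0.20 to -0.08). Of the partners of the anaphase-promoting complex, Cdc20 was at 70.3 and 56.2 CPM (-0.32, -0.37 to -0.27) and Ube2c at 328 and 259.7 CPM (-0.34, -0.36 to -0.31). Cenpa, the centromeric histone, was at 100.3 and 76.9 CPM (-0.38, -0.43 to -0.34), but its chaperone Hjurp at 62.6 and 61.9 CPM (-0.02, -0.07 to 0.03). Top2a, the topoisomerase that untangles chromosomes, was at 394 and 379 CPM (-0.05, -0.07 to -0.03). Mki67, the common proliferation marker, was at 105 and 109 CPM (0.06, 0.02 to 0.10), and Cenpe, a kinetochore motor, at 62.8 and 65.5 CPM (0.06, 0.01 to 0.11). These last were the only G2/M genes with intervals above equality. Of the others, Nusap1, a spindle protein, was lowest at -0.30, and Ccna2, Aurka, Plk1, Tpx2, Cenpf and Kif20a lay between -0.18 and -0.07 with intervals below equality. The checkpoint kinases Bub1 and Bub1b, the kinesins Kif11 and Kif23, and Tacc3 lay between -0.06 and -0.01 with intervals that held it.

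In cancer cells the members' ratios went with the length of the gene, as did those of all genes. Over 38 members, the log2 ratio in cancer cells and the genomic span of the gene (GENCODE M21, GRCm38) had a Spearman's rho of 0.47, and over 6529 genes one of 0.45. These are descriptions, since all points come from the same pair of libraries. In the other classes, rho over the members was 0.69 in macrophages (17 members), 0.35 in Ikzf2-high T cells (30), -0.04 in CD8 T cells (30), -0.18 in NK cells (17), -0.19 in DCs (15) and -0.24 in monocytes (8), and over all genes it lay between 0.15 (DCs) and 0.37 (NK cells). In cancer cells, all 13 members with a span under 10 kb were lower in ENZ cells, with a median log2 ratio of -0.26, against -0.11 and 74.8% lower for all genes of that span. Of 15 members of 10 to 30 kb, 11 were lower with a median of -0.03, against 0.01 and 48.1% lower for all genes of that span. Of 10 members over 30 kb, 9 were lower with a median of -0.06, against a median of 0.13 and 21.7% lower for all genes of that span. In each range the median of the members was below that of all genes. The part of this shift in the members' ratios, and in the shares of cells in cycle that sum the same members, was not tested.

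Other genes of the cycle, from 6 lists with 90 genes in all, were then followed. In cancer cells 62 of them had a mean of at least 20 CPM, none was past 1.5 times, and 40 intervals lay below and 11 above equality, beside the same 32.3% and 49.4% of all genes. Of 4 cyclins and kinases of G1, which act before S phase, 3 lay above it, among them Cdk6 at 57.9 and 72.6 CPM (log2 0.33, 0.28 to 0.38) and Ccnd1 (cyclin D1) at 174 and 203 CPM (0.22, 0.19 to 0.25), and Cdk4 lay below at 218 and 192 CPM (-0.18, -0.21 to -0.15). Of 6 genes of the E2F and pocket protein list, 5 lay above it, led by E2f3 at 63.7 and 74.5 CPM (0.23, 0.18 to 0.27). All 5 genes of the CDK inhibitor list lay below it, led by Cdkn1c (p57) at 36.9 and 26.4 CPM (-0.48, -0.55 to -0.41), with Cdkn1a (p21) nearest to equality at 259 and 255 CPM (-0.03). Of 4 genes of the checkpoint list, Cdc25a, a phosphatase that activates CDKs, lay above it at 21.7 and 24.8 CPM (0.19, 0.11 to 0.27), Mad2l1, of the spindle checkpoint, at 23.9 and 20.2 CPM (-0.24, -0.33 to -0.16) and Cdc25b at 23.8 and 22.1 CPM (-0.11, -0.19 to -0.02) lay below, and the interval of Wee1, a kinase that inhibits CDK1, held it. In the replication and repair list 13 of 18 lay below it, led by Pclaf, the PCNA clamp-associated factor, at 171 and 122 CPM (-0.49, -0.52 to -0.46), and Hells, a chromatin remodeller, lay above at 52.3 and 61.4 CPM (0.23, 0.18 to 0.28). In the mitosis list 18 of 25 lay below it, led by Cdca3 at 60.4 and 43.4 CPM (-0.48, -0.53 to -0.42), while Smc4, a condensin subunit, was at 241 and 241 CPM.

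Within each library, cancer cells called in cycle by the members also held more of most other cycle genes, which the call did not use. The 30 genes of the mitosis list had a median log2 ratio of cells in cycle to other cancer cells of 3.62 and 3.62, and all 30 intervals lay above equality in each library, against 24.5% and 26.6% of all genes with at least 20 UMIs. Hmmr, a spindle protein, reached 4.20 and 4.52. The replication and repair list had medians of 1.81 and 1.82, the checkpoint list 1.84 and 1.87, the E2F and pocket protein list 1.19 and 1.05, the CDK inhibitors 0.62 and 0.71, and the G1 cyclins and kinases 0.27 and 0.32. Within the last list, the E cyclins Ccne1 (1.72 and 1.63) and Ccne2 (1.71 and 1.59), which act at the entry to S phase, stood far above Ccnd3 (-0.60 and -0.58). Intervals lay below equality for 2 and 3 of 8 G1 genes and 1 and 2 of 12 genes of the E2F and pocket protein list. They did so for 1 and 2 of the 6 CDK inhibitors with at least 20 UMIs. For 10 genes followed outside the cycle lists, 6 and 8 intervals lay below equality and 2 above it in each library. Pcdh9, a marker of the cancer gate, was lowest in cells in cycle (-1.75 and -1.73). Meis2 (-0.85 and -0.73), Camk1d (-0.45 and -0.32) and Cd44 (-0.12 and -0.19) were also lower. The keratins differed, with Krt19 lower (-0.25 and -0.30), Krt18 higher (0.17 and 0.14) and Krt8 at -0.001 and -0.135. Vim was nearly level (0.00 and -0.02).

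**Figure D4:**
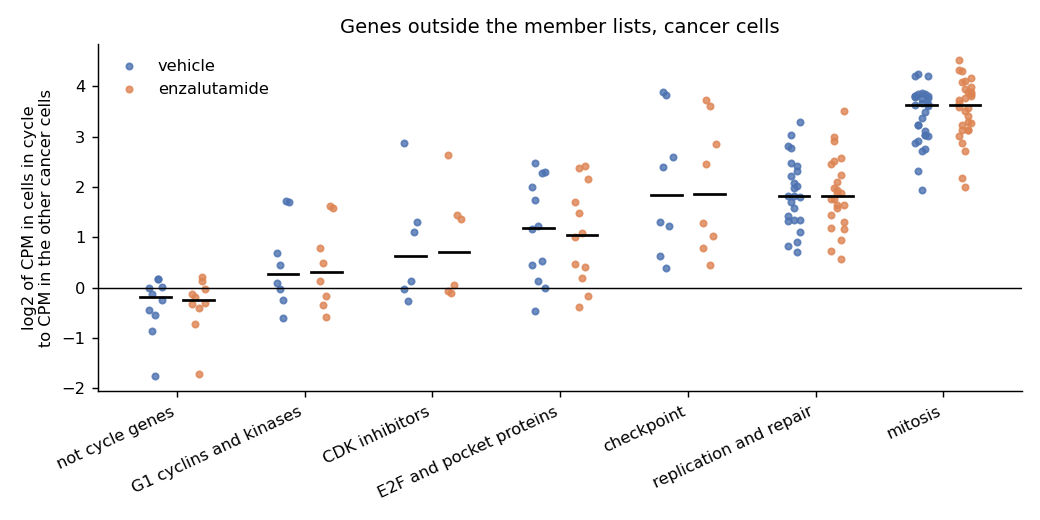
log2 ratio of the CPM in cancer cells in cycle to the CPM in the other cancer cells, for genes outside the members, by list and library; each point is 1 gene and the bars are medians. The medians range from 0.27 and 0.32 for G1 genes to 3.62 and 3.62 for mitosis genes.

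The members also varied together from cell to cell. In 3612 control and 4181 ENZ cancer cells thinned to 5000 UMIs, the S sum and the G2/M sum of a cell had a Spearman's rho of 0.52 and 0.48. Birc5 was closest to the sum of the other G2/M genes (0.70 and 0.66), followed by Top2a (0.67 and 0.64) and Ube2c (0.65 and 0.60), while Hjurp was farthest (0.18 and 0.14). Pcna was closest to the other S genes (0.45 and 0.40). Rrm1 had a higher rho with the G2/M than with the S genes (0.32 against 0.29 and 0.34 against 0.28), unlike Mcm4 (0.12 against 0.21 and 0.12 against 0.22). The closest pairs were Top2a with Birc5 (0.62 and 0.61) and Ube2c with Birc5 (0.62 and 0.61). Of 3285 genes searched outside the members, those most like the S sum were Pclaf (0.56 and 0.50), H2afz, Hmgb2, Ptma and Stmn1, and those most like the G2/M sum were Hmgb2 (0.72 and 0.67), H2afz, Hmgb1, Pclaf and Stmn1. These values share library and depth and are descriptions.

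**Figure D5:**
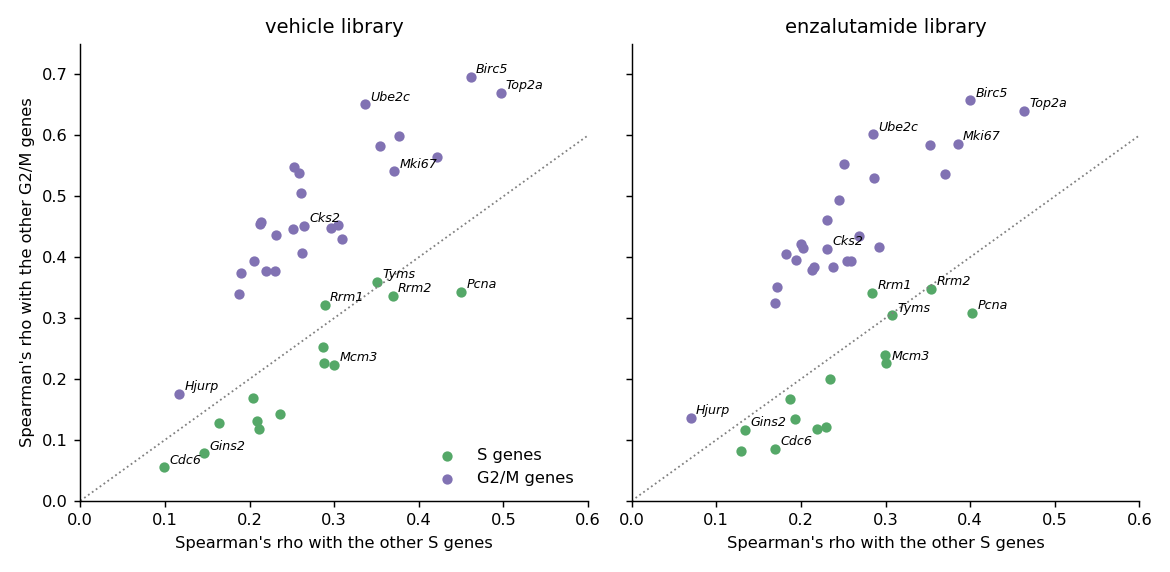
Spearman's rho of each member with the sum of the other S genes (x axis) and of the other G2/M genes (y axis) over cancer cells thinned to 5000 UMIs, by library; the dotted line marks equality. G2/M genes lie above the line, with Birc5 (0.70 and 0.66 with the G2/M sum) highest and Hjurp apart at the lower left.

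CD8 T cells were in cycle in a share like that of cancer cells. It was 40.2% (29.9 to 51.3) among control cells and 36.5% (29.0 to 44.6) among ENZ cells. The interval of the difference of -3.69 points (-17.1 to 9.46) held 0. The ratio of the G2/M level was 0.844 (0.771 to 0.925) and that of the S level 0.976 (0.868 to 1.10). Of 30 members at 20 CPM or more, 2 were higher and 6 lower by 1.5 times, against 15.0% and 10.2% of all genes. Their median log2 ratio was -0.23, against 0.05 over all genes. Gins2 at 36.6 and 14.1 CPM (log2 -1.37, -2.56 to -0.24), Ube2c at 140.2 and 87.2 CPM (-0.69, -1.18 to -0.19) and Tyms at 75.2 and 42.4 CPM (-0.83, -1.53 to -0.12) were the lowest by the bound nearer to equality. The 2 higher ones were the helicase subunits Mcm2 at 24.4 and 45.9 CPM (0.91) and Mcm4 at 42.7 and 69.5 CPM (0.70), and both intervals held equality. Mki67, at 203 and 211 CPM (0.05, -0.31 to 0.42), did not differ beyond its interval, and Top2a was at 339 and 266 CPM (-0.35, -0.64 to -0.05). Of the other members followed in every class, Pcna was at 193 and 203 CPM, Mcm5 at 71.1 and 60.1 CPM, Rrm2 at 38.6 and 33.0 CPM, Cdk1 at 34.5 and 22.4 CPM, Ccnb1 at 8.13 and 8.25 CPM, Birc5 at 118 and 89.5 CPM and Cdc20 at 8.13 and 11.8 CPM. The mitosis genes with at least 20 UMIs numbered 8 among control and 14 among ENZ CD8 T cells. Their median log2 ratios of cells in cycle to the other CD8 T cells were 2.41 and 2.63. The 5 cells with the most member UMIs held 29.8% and 22.8% of them. The 7 NK genes summed to 1004 and 675 CPM in this gate, led by Gzma at 737 and 415 CPM, with Klre1 in 12.6% and 5.13% of cells, while Eomes was at 77.2 and 117 CPM. The part of this shift in the members' ratios was not tested.

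Ikzf2-high T cells were in cycle in 37.4% (30.3 to 45.0) of control and 28.1% (22.9 to 33.7) of ENZ cells, a difference of -9.37 points (-18.5 to -0.277). With at least 1 member UMI in place of 2, the difference was 1.73 points (-7.86 to 11.4), in the other direction. The expected share over all possible draws of UMIs, in place of the 1 draw used, differed by -6.25 points (-15.2 to 2.49), and without thinning the difference was -2.31 points (-10.3 to 6.05). With a stricter gate, which left 56 and 78 cells, it was -1.10 points (-18.5 to 15.9). Under each of these choices the interval held 0, as it did with at least 3 member UMIs (-15.1 to 0.324), thinned to 2000 UMIs (-19.0 to 0.659) and without Cks2 and Pcna (-17.5 to 0.0445). It stayed below 0 with at least 2000 UMIs per cell, at most 10% mitochondrial UMIs or without cells over the doublet threshold. Among cells with a Foxp3 UMI, 32 and 69 in number, the shares were 40.6% and 31.9% (-8.74 points, -30.3 to 12.2). Among cells with a Foxp3 or a Cd4 UMI (54 and 149) the difference was -3.48 points (-19.6 to 11.7). At least 2 G2/M UMIs were found in 22.9% and 12.6% of cells (-10.3 points, -18.1 to -2.87), and at least 2 S UMIs in 10.1% and 11.9%. In the Ikzf2-high T cells in cycle the mitosis genes with at least 20 UMIs had a median log2 ratio to the others of the gate of 2.82 in the control (10 genes) and 2.73 in the ENZ library (23). Of 30 members at 20 CPM or more (median log2 ratio -0.20, against 0.09 over all genes), 4 were lower and none higher by 1.5 times, against 6.53% of all genes lower and 13.4% higher. The 4 were Cenpa at 106 and 49.9 CPM (log2 -1.09, -1.53 to -0.65), Ccnb2 at 46.0 and 20.7 CPM (-1.15, -1.85 to -0.47), Ube2c at 116 and 64.2 CPM (-0.86, -1.26 to -0.46) and Birc5 at 95.1 and 58.3 CPM (-0.70, -1.14 to -0.27). Below a mean of 20 CPM, the ENZ library was higher for Aurkb, with 6 and 26 UMIs (1.49, 0.18 to 3.06), and for the checkpoint kinase Bub1, with 5 and 23 UMIs (1.58, 0.15 to 3.33). The 5 cells with the most member UMIs held 22.2% and 28.1% of them. The highest single cell held 163 of 1994 control and 332 of 2730 ENZ member UMIs. The intervals of Mki67 (151 and 173 CPM) and Top2a (225 and 209 CPM) held equality. Of the others followed, Pcna was at 158 and 148 CPM, Mcm5 at 35 and 30.5 CPM, Rrm2 at 21.0 and 30.5 CPM, Tyms at 52.0 and 44.7 CPM, Cdk1 at 37.0 and 34.4 CPM, Ccnb1 at 20.02 and 9.08 CPM and Cdc20 at 8.01 and 9.72 CPM. The make-up of the gate moved with the condition. Of its panel, Foxp3 was at 43.0 and 73.9 CPM, Il2ra at 188 and 384 CPM, Ctla4 at 227 and 383 CPM and Ikzf2 at 1678 and 1629 CPM, and Cd4 was at 65.1 and 148 CPM. The 7 NK genes summed to 882 and 430.5 CPM, led by Gzma at 529 and 303 CPM. Klre1 was found in 26.3% and 6.47% of cells, Klrd1 was at 126 and 43.4 CPM and Klrb1c at 48.0 and 9.72 CPM, and 6 of the 7 were lower in the ENZ library. Their part in the members' ratios was not tested.

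NK cells had a lower level of G2/M genes in the ENZ library, while the share in cycle did not differ beyond its interval. The G2/M genes summed to 761 and 371 CPM, a ratio of 0.488 (0.415 to 0.571), and the S genes to 499.6 and 411 CPM (0.822, 0.699 to 0.964). The share in cycle was 20.8% (16.1 to 26.2) and 19.5% (13.1 to 27.5), which exceeded the neutrophils by 6.98 points (1.76 to 12.7) and 4.20 points (-3.27 to 12.8). In the NK cells in cycle the mitosis genes with at least 20 UMIs had a median log2 ratio to the other NK cells of 2.41 in the control (6 genes) and 0.08 in the ENZ library (2). Of 17 members at 20 CPM or more (median log2 ratio -0.61, against 0.07 over all genes), 10 were lower by 1.5 times and none higher, against 10.5% of all genes lower and 12.3% higher. The lowest by the bound nearer to equality were Nusap1 at 37.8 and 7.57 CPM (40 and 4 UMIs) and Top2a at 133 and 54.9 CPM (log2 -1.28, -1.91 to -0.70). Cenpf, a kinetochore protein, was also low at 25.5 and 3.78 CPM (27 and 2 UMIs). Its mean was under 20 CPM, so it was not among the 17. Mki67 was at 69.1 and 28.4 CPM (-1.28, -2.19 to -0.47) and Tyms at 45.4 and 15.1 CPM (-1.59, -2.88 to -0.49), whereas the interval of Pcna held equality at 147 and 119 CPM (-0.30, -0.75 to 0.13). Of the others followed, Mcm5 was at 28.4 and 18.9 CPM, Rrm2 at 12.3 and 5.68 CPM, Cdk1 at 30.3 and 20.8 CPM, Ccnb1 at 6.62 and 9.46 CPM, Birc5 at 53.0 and 17 CPM and Cdc20 at 6.62 and 3.78 CPM. The 5 cells with the most member UMIs held 30.7% and 19.9% of them, and the highest single cell 129 of 1332 control and 22 of 413 ENZ member UMIs. The intervals of the NK levels and ratios leave out this spread between cells.

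Among the 7 classes set against neutrophils, macrophages were the only one in which both lists were higher in the ENZ library with intervals above equality. The S genes summed to 300.4 and 363 CPM, a ratio of 1.21 (1.14 to 1.28), and the G2/M genes to 488 and 645 CPM, a ratio of 1.32 (1.27 to 1.38). Of 17 members at 20 CPM or more (median log2 ratio 0.31, against 0.13 over all genes), 3 were higher and none lower by 1.5 times, against 7.87% of all genes higher and 3.22% lower. The 3 were Mki67 at 48.1 and 84.1 CPM (log2 0.81, 0.62 to 0.99), Top2a at 55.1 and 91.6 CPM (0.73, 0.56 to 0.91) and Rrm1 at 19.2 and 32.6 CPM (0.76, 0.46 to 1.06). Nusap1, with a mean under 20 CPM, was at 11.7 and 23.7 CPM (1.02, 0.65 to 1.39). Pcna, at 96.9 and 106 CPM (0.12, -0.03 to 0.28), did not differ beyond its interval. Of the others followed, Mcm5 was at 12.4 and 21.7 CPM, Rrm2 at 7.66 and 12.8 CPM, Tyms at 18.0 and 16.8 CPM, Cdk1 at 18.8 and 23.3 CPM, Ccnb1 at 7.37 and 7.82 CPM, Birc5 at 28.3 and 33.8 CPM and Cdc20 at 6.42 and 9.54 CPM. The share in cycle was 16.1% and 19.2% (3.07 points, -0.206 to 6.45), and it exceeded the neutrophils by 2.23 points (-0.613 to 5.01) and 3.82 points (-0.742 to 8.14), so it was not clear of the background. With the expected share over all draws the difference was 4.04 points (0.794 to 7.39), and its interval lay above 0 in the other alternatives too, except with at least 2000 UMIs per cell (-0.0438 to 6.97) and with a stricter gate (-1.58 to 8.07). Thinned to 2000 UMIs, which left 1235 and 713 macrophages, the share was 27.2% and 38% (10.8 points, 6.39 to 15.2), against 29.3% and 29.6% of neutrophils at that depth. The mitosis genes with at least 20 UMIs numbered 28 among control and 29 among ENZ macrophages. Their median log2 ratios of macrophages in cycle to the other macrophages were 2.60 and 3.16. The 5 macrophages with the most member UMIs held 8.03% and 12.01% of them. The highest single macrophage held 199 of 8229 control and 147 of 5286 ENZ member UMIs. The intervals of the macrophage levels and ratios leave out this spread between cells. The macrophage markers Mrc1 and C1qb were at 606 and 1163 CPM and at 1960.1 and 1351 CPM, and free RNA was put at 4.20% and 7.32% of UMIs. Judged by Rhox5, free RNA would give 12.1% and 16.8% of the macrophages' member level. The members' ratios in macrophages had a rho of 0.69 with gene length, against 0.32 for all genes, and Mki67, Top2a and Rrm1 spanned 26.6, 31.2 and 28.1 kb. The part of these in the members' ratios was not tested.

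Monocytes did not rise above the neutrophils by the share in cycle, which was 11.7% (10.0 to 13.6) among control cells and 10.4% (8.81 to 12.1) among ENZ cells (-1.36 points, -3.80 to 1.07). Without thinning, where cells differ in depth, the difference was 6.54 points (2.77 to 10.3), in the other direction. The G2/M genes summed to 415 and 343 CPM (ratio 0.827, 0.780 to 0.876) and the S genes to 215 and 196 CPM (0.911, 0.843 to 0.986), and Cks2 alone took 17.7% and 18.4% of the member UMIs. Only 8 members had a mean of 20 CPM (median log2 ratio -0.30, against 0.04 over all genes), of which 3 were lower by 1.5 times and none higher, against 3.48% of all genes lower and 6.30% higher. The 3 were Cdt1 at 27.7 and 15.2 CPM (log2 -0.86, -1.24 to -0.49), Ube2c at 28.0 and 15.7 CPM (-0.84, -1.21 to -0.47) and Top2a at 43.8 and 25.5 CPM (-0.78, -1.07 to -0.49). Below a mean of 20 CPM, Tyms was at 11.9 and 4.98 CPM (-1.26, -1.91 to -0.64) and Birc5 at 21.3 and 10.3 CPM (-1.06, -1.51 to -0.62), and both were lower, while Mcm2 was higher at 3.02 and 5.75 CPM (0.93, 0.08 to 1.83). Pcna was higher by less than 1.5 times, at 81.8 and 96.2 CPM (0.24, 0.06 to 0.41). Of the others followed, Mcm5 was at 7.56 and 4.98 CPM, Rrm2 at 5.04 and 6.06 CPM, Mki67 at 30.2 and 25.8 CPM, Cdk1 at 10.4 and 7.31 CPM, Ccnb1 at 5.54 and 7.15 CPM and Cdc20 at 4.70 and 5.44 CPM. The monocytes called in cycle differed between the libraries in other cycle genes. In the control library 16 of 19 mitosis genes had intervals above equality against the other monocytes (median log2 ratio 2.69), and in the ENZ library none of 17 did (0.18), against 8.19% and 4.95% of all genes with at least 20 UMIs. The highest member sum of a monocyte was 118 UMIs in control and 23 in ENZ cells.

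In DCs the G2/M level rested in large part on a few cells. The G2/M genes summed to 974 and 475 CPM (ratio 0.488, 0.425 to 0.559), and the S genes to 276 and 293 CPM (1.06, 0.871 to 1.29). The 5 cells with the most member UMIs held 52.9% and 41.2% of them, and 1 control cell alone 372 of 1402. The share in cycle, to which such a cell adds only itself, was 14.8% (10.1 to 20.6) and 16.0% (9.63 to 24.4), at the level of the neutrophils. In the DCs in cycle the mitosis genes with at least 20 UMIs had a median log2 ratio to the other DCs of 3.79 in the control (11 genes) and 1.49 in the ENZ library (1). Of 15 members at 20 CPM or more (median log2 ratio -0.87, against 0.02 over all genes), 8 were lower and 1 higher by 1.5 times, against 9.74% of all genes lower and 11.4% higher. Ube2c was lowest at 104 and 21.8 CPM (117 and 12 UMIs), followed by Nusap1 at 47.3 and 12.7 CPM and Tpx2, a spindle assembly factor, at 46.4 and 12.7 CPM. Of the others followed, Pcna was at 83.8 and 85.6 CPM, Mcm5 at 12.5 and 14.6 CPM, Rrm2 at 16.9 and 10.9 CPM, Tyms at 18.7 and 16.4 CPM, Mki67 at 108 and 80.1 CPM, Top2a at 140.0 and 76.5 CPM, Cdk1 at 24.1 and 10.9 CPM, Ccnb1 at 12.5 and 5.46 CPM, Birc5 at 52.6 and 18.2 CPM and Cdc20 at 19.6 and 7.28 CPM. Mcm6, the higher one, was at 28.5 and 49.2 CPM (log2 0.78, -0.01 to 1.57), an interval that held equality. Markers of mature DCs were higher in the ENZ library, with Ccr7 at 278 and 509.8 CPM and Fscn1 at 289 and 541 CPM. Without the cells that had a Ccr7, Fscn1 or Cacnb3 UMI, the share in cycle was 12% of 92 and 14.9% of 47 cells.

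Single members set the other classes apart from neutrophils to different extents. At 1000 UMIs per cell, a Top2a UMI was found in 18.9% and 18.1% of control and ENZ cancer cells, 16.1% and 16.0% of CD8 T cells, 14.5% and 7.19% of Ikzf2-high T cells, 7.2% and 4.69% of NK cells, 4.15% and 6.79% of macrophages and 2.1% and 4.58% of neutrophils. Mki67 was found in 7.15% and 7.19% of cancer cells, 13.8% and 9.62% of CD8 T cells and 1.64% and 1.60% of neutrophils. For Pcna the shares lay closer together, at 15.8% and 14.8% in cancer cells, 9.20% and 16.7% in CD8 T cells and 7.47% and 6.41% in neutrophils.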

How the data were processed

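The deposited values were raw UMI counts per gene and barcode, 1 matrix per library, made by the authors with Cell Ranger. The submitters' processing notes name version 2.1.1 with mm10 and the matrix header names 7.2.0, and which of them made the files was not settled here. The chemistry counts 3' ends, so a gene's UMIs are not scaled by its length, and list sums and shares of member UMIs are of captured UMIs. Library depth and cells kept are given above.

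Cells were gated by summed UMIs of marker panels per 1000 UMIs. A cell over the limit of more than 1 class, or of none, stayed ungated. The members and gene lists were chosen with earlier results of these data known, and gate limits were set after marker and cycle levels had been seen, so no list is independent evidence. For each library and class UMIs were summed, and CPM carried exact Poisson intervals. Ratios of ENZ to control had exact conditional binomial intervals, shares Clopper-Pearson and differences of shares Newcombe intervals, all at 95%. Those of CPM and ratios treat UMIs as independent, although UMIs of the members cluster in cells. Thinning drew UMIs without replacement (seed 1). For counts past 1.5 times, genes with a mean of at least 20 CPM over both libraries were used. No count model was fitted, because each condition had 1 library. Values of Pcna, Mcm5, Rrm2, Tyms, Mki67, Top2a, Cdk1, Ccnb1, Birc5 and Cdc20 are given in every class. Beside these the rule named the 3 lowest and 3 highest members of each list in cancer cells by the bound nearer to equality and, in each immune class, up to 3 at each end with at least 20 UMIs and past 1.5 times; other members and genes of the cycle were chosen after their values were seen.

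Doublets were scored with scrublet as run by scanpy; all gated cells were kept in the reported values, and cells over the threshold found for the ENZ library (0.216, in place of 0.577 found for the control library), 3.37% of control and 3.20% of ENZ cells, were left out in an alternative. Other alternatives changed the thinning depth, the number of member UMIs, the gates, the minimum level, the fold and the scaling. Those that left out Cks2 and Pcna, required a Foxp3 or Cd4 UMI or left out mature DCs were added after seeing the data. The steps were tested on simulated data. Python 3.11.15, numpy 2.4.6, scipy 1.17.1, pandas 2.3.3, scanpy 1.11.5 and matplotlib 3.10.9 were used. Promoters came from RefSeq, and proteins and a genome sequence were not used.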

Additional observations from a re-analysis of the deposited data

Results flagged for a closer look

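The lists moved in opposite directions in macrophages and cancer cells. For the S genes, the log2 ratio of ENZ to control was 0.27 in macrophages and -0.13 in cancer cells, which differ by 0.40. For the G2/M genes, it was 0.40 and -0.19, which differ by 0.59. Each class had 1 library per condition, and the differences were not tested.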

How the results depend on the processing

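Under all 9 alternatives both list levels stayed lower in ENZ cancer cells. The S log2 ratio was -0.15 with a keratin or Epcam gate, -0.10 as the mean of cell CPM and -0.18 with median-of-ratios scaling, and the G2/M ratio -0.18, -0.27 and -0.24, and -0.16 with a stricter gate. The difference in the share of cancer cells in cycle kept an interval below 0 in all alternatives but that without thinning, where nearly all cells met the rule and it was -0.129 points (-0.682 to 0.433). With at least 1 member UMI the difference turned in direction in Ikzf2-high T cells (1.73 points), NK cells (4.33) and monocytes (2.08), and was 6.88 points in macrophages. Thinned to 2000 UMIs it was 10.8 points in macrophages and turned in monocytes (2.15). Without thinning it was 6.47 points in macrophages and turned in CD8 T cells (6.45), NK cells (7.39), monocytes (6.54) and DCs (-8.24). It also turned with a stricter gate in CD8 T cells (2.46), NK cells (0.210) and DCs (-2.98), and with at least 3 member UMIs in monocytes (0.00398). Of the values that turned, only that of monocytes without thinning had an interval clear of 0 (2.77 to 10.3), and in the other alternatives the sign given in the report was kept. Without Cks2 and Pcna, a choice made after seeing the data, the macrophage difference was 3.47 points and the monocyte shares 5.91% and 5.85%. Counts of members past the fold moved with the limits, and are given here with the share of all genes past the same limit in parentheses. At a fold of 5 to 4, 10 of 38 (3.18%) were lower in cancer cells, 13 of 30 (23.0%) in CD8 T cells and 7 of 30 (17.6%) in Ikzf2-high T cells, and 2 of 30 (29.4%) higher in Ikzf2-high T cells, 1 of 17 (28.5%) in NK cells and 8 of 17 (28.6%) in macrophages. At a fold of 2, the lower ones were 1 of 30 (3.05%) in CD8 T cells, 2 of 30 (1.83%) in Ikzf2-high T cells and 0 of 8 (0.521%) in monocytes, and the higher ones 0 of 30 (4.34%) in CD8 T cells, 0 of 17 (0.895%) in macrophages and 0 of 15 (2.63%) in DCs. With a mean of at least 50 CPM, the lower ones were 3 of 19 (6.71%) in CD8 T cells, 2 of 5 (7.46%) in NK cells, 0 of 2 (2.89%) in monocytes and 2 of 4 (7.02%) in DCs, and the higher ones 1 of 19 (10.0%) in CD8 T cells and 0 of 4 (7.08%) in DCs. With no minimum, the lower ones were 25 of 39 (30.6%) in NK cells, 10 of 39 (17.9%) in monocytes and 20 of 39 (29.5%) in DCs, and the higher ones 11 of 39 (22.4%) in macrophages, 3 of 39 (32.3%) in Ikzf2-high T cells, 3 of 39 (23.8%) in DCs, 1 of 39 (25.2%) in NK cells and 1 of 39 (24.9%) in monocytes. The cause was not tested. No paired analysis was possible because there was only 1 library per condition. Few immune cells and few UMIs per member left wide counting intervals outside cancer cells.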

Other observations

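Cells that passed no single gate, 3931 control and 2705 ENZ cells, held the S genes at 601 and 526 CPM and the G2/M genes at 1601 and 1242 CPM. Among them, cells with both cancer and leukocyte markers (953 and 690) held G2/M genes at 1919 and 1453 CPM, and 27.7% and 25.8% of them were over the doublet threshold. Cells with fibroblast markers (150 and 118) held S genes at 368 and 298 CPM and G2/M genes at 1013 and 470.1 CPM.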
